A study of Arabidopsis thaliana with 21 samples.

Results

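The genes described here are those whose signal was lower in Arabidopsis seedlings after the auxin indole-3-acetic acid (IAA) was given alone. Members were chosen by the measured values: a probe set entered when its mean log2 signal over the IAA arrays lay at least 0.6 below its mean over the DMSO arrays and its highest IAA array lay below its lowest DMSO array. Control probe sets, plastid genes and 6 loci named in the rule were left out. The rule gave 69 members of 22746 probe sets, of which 35 were paired with 1 gene, 1 with several genes and 33 with no gene. The annotation used left 8730 of all 22746 probe sets unpaired, so a missing pair does not mean that a probe set has no gene. Members without 1 gene are given by their probe set ID, and whether one of them is a plastid gene could not be looked up. Of the probe sets that met the rule, 1 plastid gene was left out, and none of the 6 loci met it.

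Auxin enters transcription through the receptors TIR1 and AFB, which bind it together with Aux/IAA repressors and mark the repressors for breakdown by the proteasome. Auxin response factors are then freed, and genes such as the Aux/IAA, GH3 and LBD families rise within an hour. Other genes fall after auxin, and these are the subject here.

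The study used 7-day-old light-grown Col-0 seedlings in liquid medium with sucrose, treated for 1 h before total RNA was taken for ATH1 arrays. The 6 groups were the solvent DMSO (4 arrays), 5 µM IAA (4 arrays), 10 µM of a compound known only as A (4 arrays), 10 µM of a compound known only as B (3 arrays), IAA with A (3 arrays) and IAA with B (3 arrays), with both agents at the same doses. No structure is given for either compound. The labels do not say that replicate arrays stem from independent cultures, and p-values then measure only the spread between arrays, which may be technical.

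One label is in doubt. The experiment record of the array titled as the second IAA replicate (IAA 2) names 10 µM of compound B and no IAA. On that array GH3.3, an auxin-conjugating enzyme that auxin induces, read 13.3 in log2 signal, where the other IAA arrays read 12.8 to 13.2 and the B arrays 8.45 to 8.65. GRX480, a glutaredoxin, read 5.18 on it, against 10.3 to 10.7 on the B arrays. The library labelled IAA 2 was kept in its titled group. Without it the rule gave 66 members, of which 57 were among the 69. It gave 104 members without DMSO 1 and 151 without DMSO 3.

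Further arrays stood apart. COR27, a cold-regulated gene under clock control, read 4.12 to 4.77 on DMSO 4, on A 1, A 3 and A 4, on B 1, on every IAA with A array and on IAA with B 1, and 5.86 to 7.35 on the other arrays. The rule gave 83 members without DMSO 2 and DMSO 4, and 41 of them were among the 69. Replicates of a group correlated at 0.978 or more across probe sets, and array medians of all probe sets ran from 7.17 to 7.25. Shoot and root RNA were both present. RCA, the Rubisco activase of green tissue, read 13.02 to 13.33 on the arrays, and was the 1 of 5 shoot markers paired with a probe set. PYK10, a root beta-glucosidase, averaged 13.34 to 13.54. In whole seedlings fewer cells of a type and less RNA per cell cannot be told apart.

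The differences that chose the members ranged from -1.39 to -0.60 with a median of -0.72 on the log2 scale. Membership took in 0.308% of all probe sets when counted before the plastid gene was left out, a share the rule itself sets. Only 6 members were lower by 2-fold or more, 15 lay between -1 and -0.8, and 48 between -0.8 and -0.6. The set was therefore one of small differences in a narrow band close to its threshold. Just inside the threshold stood 246933_at at -0.605, AT4G34560 at -0.603 and 263797_at at -0.601, and just outside stood AT4G23870 and AT5G56100 at -0.593 and AT2G44010 at -0.591.

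AT2G21560, a gene without an assigned name, had the lowest difference of all. Its log2 signal was 6.49, 6.79, 6.72 and 7.08 in DMSO and 5.02, 5.01, 5.90 and 5.60 in IAA. AT2G44380, of the Cys/His-rich C1 domain family, read 9.63, 8.92, 8.05 and 8.60 in DMSO and 6.98, 7.34, 7.88 and 7.86 in IAA. The first gene had a wide gap between the groups and the second a narrow one, since DMSO 3 lay just above IAA 3. AT1G72200, of the RING-H2 ubiquitin ligase family, read 7.63, 8.18, 7.90 and 8.53 in DMSO and 6.45, 6.92, 7.35 and 7.39 in IAA. The differences of these genes were -1.39, -1.28 and -1.03.

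Members also shared a pattern within the IAA group that the rule did not ask for. On IAA 1 and IAA 2 the median of the 69 members was 6.86 and 6.94, and on IAA 3 and IAA 4 it was 7.26 and 7.31. In 45 of 69 members both of the first pair of arrays lay below both of the second pair, against 21.8% of all probe sets, and in 5 members both lay above, against 20.7%. The rule used these arrays, so the pattern is a description.

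**Figure D1:**
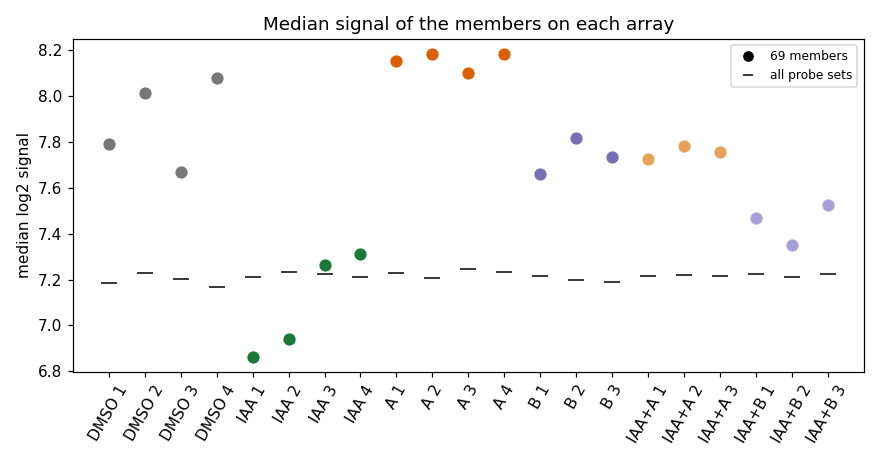
Median log2 signal of the 69 members (points, coloured by group) and of all probe sets (dashes) on each of the 21 arrays. The members' median is lowest on IAA 1 and IAA 2 and highest on the A arrays, where it lies between 8.10 and 8.18, while the dashes stay between 7.17 and 7.25. Taken member by member, the median difference of A from DMSO was nevertheless -0.13, against -0.02 over all probe sets. The rule favours a value below 0 there.

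Whether IAA lowered the same genes when a compound was present was asked on the 13 arrays that the rule did not use. IAA with A was compared with A, IAA with B with B, and the mean of both IAA responses was tested as 1 value. Across the set the response was downward and small, with a median of -0.26 for the mean response, against -0.02 over all probe sets. The mean response lay below 0 in 61 of 69 members, against 59.2% of all probe sets, and ranged from -0.75 to 0.40. It passed the adjusted threshold of 0.05 as a fall in 11 members, against 0.352% of all probe sets, and as a rise in none, against 1.77%. At an unadjusted p under 0.05 the members that fell numbered 34, against 6.39%. With members chosen without IAA 2, 9 of 66 fell and the median was -0.20. The count of 11 was 7 without A 1, 7 without B 2, 5 without B 3, 4 without B 1, 4 without IAA with A 2, 7 without IAA with A 3, 7 without IAA with B 1 or 2, and 5 without IAA with B 3.

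With A present, 63 of 69 members read lower with IAA than without it, against 57.4% of all probe sets, and the median was -0.26. The arrays of both groups did not overlap in 13 members, each of them lower with IAA, against 5.06% of all probe sets. Past the threshold were AT5G42680 and 266745_at, 2 members against 0.0703%. That count was 0 without A 1, and 1 without any of A 2, A 4, B 2, B 3, IAA with A 1 or 2, or IAA with B 1 or 3. With B present, 54 of 69 read lower, against 55.9% of all probe sets, with a median of -0.22. Lower without overlap were 25 members, against 7.88%, and higher without overlap were 2, against 6.92%. The 4 members past the threshold, against 0.163%, were AT2G21560, 264470_at, 246216_at and 260453_s_at. That count was 1 without any of the B arrays in turn or without IAA with B 3, and 2 without IAA with B 2.

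Both IAA responses lay below 0 in 50 of 69 members, against 35.8% of all probe sets. The difference between the IAA response with A and that with B passed the threshold in no member, against 0.00879% of all probe sets in limma, and 5 of 69 members had an unadjusted p under 0.05, against 3.48% of all probe sets. Across the 69 members the IAA response with A and with B correlated at r = 0.34 and rho = 0.34, against 0.62 and 0.26 over all probe sets, a description over probe sets that share the same arrays.

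AT5G42680, a gene without an assigned name, had a small and even response. Its signal was 8.69, 8.55, 8.40 and 8.71 in A and 8.08, 8.27 and 7.89 in IAA with A. It was 8.74, 8.59 and 8.59 in B and 8.19, 8.18 and 8.28 in IAA with B. Neither pair of groups overlapped. The DMSO arrays, at 8.38 to 8.84, and the IAA arrays, at 7.83 to 8.06, were those that chose the gene. The mean response was -0.47 ± 0.08 (SE, adjusted p = 0.00309 by limma), with -0.51 ± 0.10 in A (adjusted p = 0.0352) and -0.43 ± 0.11 in B (adjusted p = 0.117). The mean response kept its call when any 1 array was left out, while the call in A was lost without any of A 1, A 2, A 4, IAA with A 1, IAA with A 3, B 2, B 3 or an IAA with B array, and its adjusted p then reached 0.175.

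The IAA response of AT2G21560 passed the threshold with B and not with A, without a called difference between both. The gene read 5.73, 5.27, 5.68 and 5.84 in A, and 5.76, 5.15 and 5.43 in IAA with A. In B it read 5.72, 5.89 and 5.66, and in IAA with B 4.99, 4.79 and 5.04. The first pair of groups overlapped and the second did not. The IAA response was -0.18 with A (95% interval -0.51 to 0.14) and -0.82 ± 0.16 with B (adjusted p = 0.0200 by limma). The difference between both responses was 0.63, with an interval of 0.16 to 1.11 and an adjusted p of 1.000, so it did not pass the threshold. The mean response of -0.50 ± 0.11 had an adjusted p of 0.0285, which reached 0.0932 with all 21 arrays. That call was lost without any 1 array other than A 2 and IAA with A 1, and the call in B was lost without any 1 of the B or IAA with B arrays, its adjusted p reaching 0.111. Every A and B array of the gene lay below every DMSO array. The rule chose the gene for high DMSO arrays, so this is a description without a test.

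AT5G10210, a gene without an assigned name, read 7.39, 6.85, 7.48 and 8.06 in A and 6.97, 7.04 and 6.88 in IAA with A. In B it read 7.48, 7.29 and 7.38, and in IAA with B 6.85, 6.28 and 6.50. The groups overlapped with A, through A 2, and not with B. The mean response was -0.66 ± 0.16 (adjusted p = 0.0454 by limma), and it lost its call when any 1 array other than A 2, A 4 and IAA with B 1 was left out, its adjusted p reaching 0.131.

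The other members with a called mean response were not paired with 1 gene in the annotation used. Probe set 246216_at fell by 0.57 on the log2 scale, with an SE of 0.09 (adjusted p = 0.00166). It read 7.48 to 7.76 in A, 6.99, 7.08 and 7.37 in IAA with A, 7.47 to 7.59 in B and 7.08, 6.87 and 6.72 in IAA with B, so that neither pair overlapped. Probe set 266745_at fell by 0.69 (adjusted p = 0.00425), its call with A being lost without A 1 or IAA with A 2 (up to 0.0937), and its arrays read 7.42 to 7.79 in A against 6.41 to 6.93 in IAA with A. Probe set 264470_at passed the threshold with B: it read 7.90, 7.81 and 7.71 in B and 6.82, 6.71 and 6.67 in IAA with B, a response of -1.07 ± 0.14 (adjusted p = 0.000633). With A its response was -0.02, with an interval of -0.31 to 0.26, and the arrays overlapped. The difference of 1.05 between both responses had an adjusted p of 0.361 and so was not called. The calls of the mean response of these 3 probe sets held when any 1 array was left out. The remaining mean responses ran from -0.72 (252340_at, adjusted p = 0.0200) over -0.52 (252534_at), -0.46 (260453_s_at) and -0.38 (251342_at) to -0.36 (248395_at), with adjusted p-values of 0.0200 to 0.0446, and each of these calls was lost without at least 5 single arrays.

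**Figure D2:**
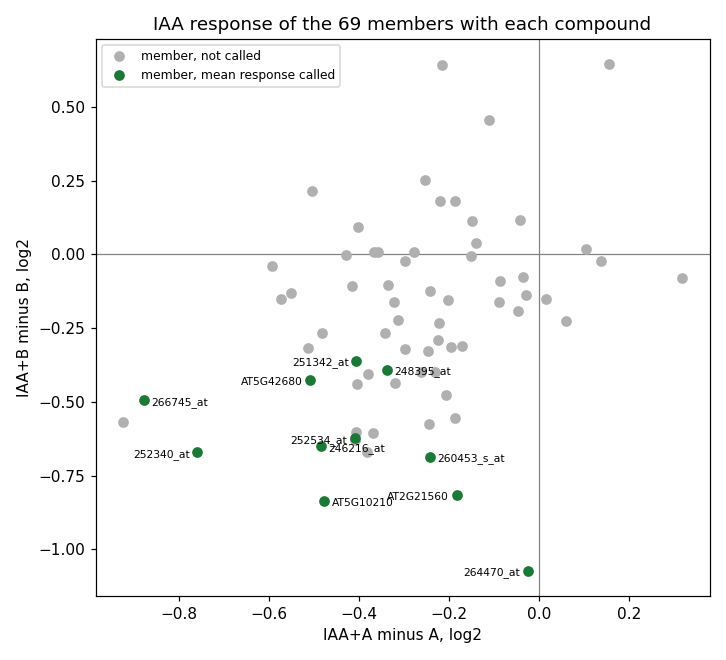
IAA response of each of the 69 members in the presence of A (x axis, IAA+A minus A) and of B (y axis, IAA+B minus B), both as log2 differences of group means. Green points are the 11 members whose mean response passed the threshold, and 50 of the 69 points lie in the lower left, where both responses are below 0.

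ATG8E, a ubiquitin-like protein of the autophagosome, and ATL8, of the RING-H2 ubiquitin ligase family, are well studied members without a called response, and they were picked after their values were seen. ATG8E read 8.26, 8.68, 8.23 and 8.61 in A and 8.31, 8.03 and 7.77 in IAA with A. In B it read 9.44, 8.92 and 8.64 and in IAA with B 8.23, 8.51 and 8.45, without overlap. Its mean response of -0.50 ± 0.14 had an adjusted p of 0.0924, and that of ATL8, -0.49 ± 0.18, one of 0.289, so neither was called. AT5G48490, of the lipid transfer protein family, had a mean response of 0.21, with an interval of -0.53 to 0.96, and A arrays from 8.35 to 10.05. AT2G44380 and AT1G72200 showed no called response. That of AT2G44380 was -0.22 with A (interval -0.65 to 0.21) and 0.18 with B (interval -0.28 to 0.64). That of AT1G72200 was -0.19 with A (interval -0.46 to 0.09) and 0.18 with B (interval -0.11 to 0.48).

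**Figure D3:**
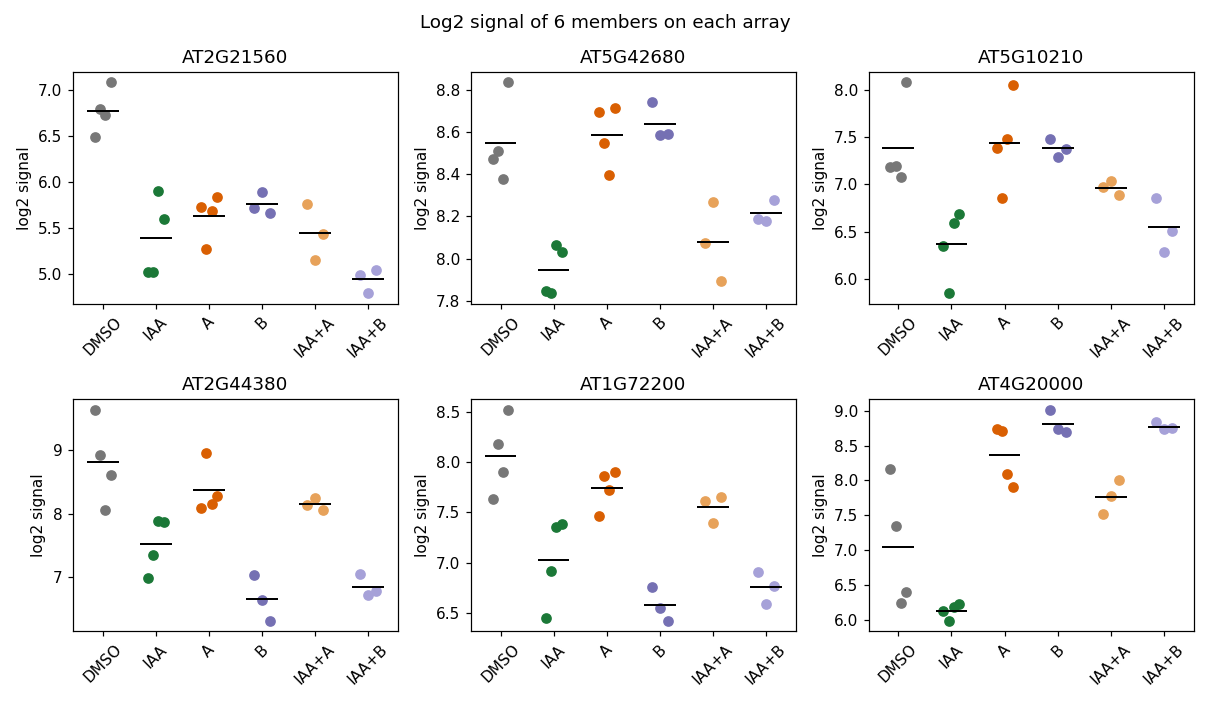
Log2 signal of 6 members on each of the 21 arrays, by group, with 1 point per array and a bar at the group mean. AT2G21560, AT5G42680 and AT5G10210 (top) had a called mean IAA response with the compounds, while AT2G44380, AT1G72200 and AT4G20000 (bottom) differed between the compounds. The y axes do not start at 0 and differ between panels.

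Compounds A and B were compared at the same dose and time, once without IAA and once with it. Without IAA, 14 members were higher with A than with B, against 4.07% of all probe sets, and 1 was lower, against 1.6%. With IAA, 12 were higher, against 2.13%, and 3 were lower, against 0.752%. The members' median difference was 0.17 in both settings, against -0.02 over all probe sets. In 53 of 69 members the differences had the same sign, against 70.7% of all probe sets, and 9 members were called higher with A in both and 1 lower in both, against 1.66% and 0.295%. Those 9 were AT2G44380, AT1G72200, AT5G19970, 251342_at, 252081_at, 253061_at, 262826_at, 263595_at and 263797_at, and the 1 lower was 257823_at. The comparison without IAA shares no array with the one with IAA, and across members the differences correlated at r = 0.81 and rho = 0.76, against 0.77 and 0.61 over all probe sets.

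The count of 14 was 8 without B 2 or without B 3. The count of 12 was 4 without IAA with A 1, 7 without IAA with A 2, 8 without IAA with A 3, and 6 without IAA with B 2 or 3. The count of 1 lower was 2 without A 3 and 3 without A 4, and that of 3 lower was 5 without A 2, 2 without B 3 or IAA with B 2, and 1 without IAA with A 1 or 2 or IAA with B 3. Among the root markers, 3 of 6 were paired with a probe set. EXPA7 and EXPA18, expansins of root hair cells, were higher in A than in B by 2.09 ± 0.22 and 2.25 ± 0.26, and with IAA by 1.97 ± 0.23 and 2.08 ± 0.28, past the threshold each time. PYK10, the third, differed by 0.07 ± 0.07. The signal of the paired markers was also summed on the unlogged scale. The log2 of that sum was 13.3 to 13.5 in A and 13.3 to 13.4 in B. It was 13.5 to 13.6 in IAA with A and 13.3 to 13.5 in IAA with B. The sum is nearly that of PYK10 alone, which averaged 13.41 in A and 13.35 in B, while EXPA7 averaged 7.97 and 5.87. It therefore does not show the difference in the expansins. The markers' part in the members' difference was not tested. All IAA with A arrays had COR27 low, as had 3 of the 4 A arrays, while 2 of 3 arrays in B and in IAA with B did not. Without A 2 and IAA with B 1, the members called higher were 20 without IAA and 16 with it, while the calls over all probe sets in either direction went from 1291 to 2262 and from 655 to 1534.

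AT2G44380 had the largest difference among the members. It read 8.08, 8.95, 8.15 and 8.28 in A and 7.03, 6.65 and 6.32 in B. With IAA it read 8.14, 8.25 and 8.05 in IAA with A and 7.04, 6.72 and 6.78 in IAA with B. The A arrays lay within the range of the DMSO arrays and the B arrays lay below 3 of the 4 IAA arrays. The difference was 1.70 ± 0.20 without IAA (adjusted p = 0.000321 by limma) and 1.299 ± 0.21 with it (adjusted p = 0.00490), and both calls held when any 1 array was left out.

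AT1G72200 gave a like picture, with 7.46, 7.86, 7.73 and 7.91 in A and 6.75, 6.54 and 6.42 in B. With IAA it read 7.61, 7.40 and 7.65 with A and 6.91, 6.59 and 6.77 with B. The difference was 1.17 ± 0.13 without IAA (adjusted p = 0.000187) and 0.80 ± 0.14 with it (adjusted p = 0.00663). With all 21 arrays in the model the second call was lost (adjusted p = 0.0571). AT5G19970, a gene without an assigned name, differed by 0.97 ± 0.21 and 1.08 ± 0.22 (adjusted p = 0.0161 and 0.0181), and its A arrays at 6.74 to 7.57 lay above its B arrays at 6.05 to 6.23. The first call was lost without B 2 or B 3 (adjusted p up to 0.0661), and the second without IAA with A 1 or 3 or IAA with B 2 or 3 (up to 0.0783). AT1G30260 differed by 0.74 ± 0.11 without IAA (adjusted p = 0.00219) and by 0.46 ± 0.12 with it (adjusted p = 0.0625).

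In the opposite direction, 257823_at read 9.10, 9.60, 8.97 and 8.84 in A and 10.54, 10.46 and 10.41 in B. The differences were -1.34 ± 0.15 without IAA and -1.21 ± 0.16 with it (adjusted p = 0.000187 and 0.00107). AT4G20000, a VQ motif protein, was lower with A than with B when IAA was present, at 7.52, 7.78 and 8.01 against 8.83, 8.73 and 8.75, a difference of -1.001 ± 0.20 (adjusted p = 0.0175), a call lost without IAA with A 1 or 2 or IAA with B 2 or 3 (adjusted p up to 0.101), and with all 21 arrays in the model (adjusted p = 0.124). Without IAA its difference was -0.45, with an interval of -0.86 to -0.04 and an adjusted p of 0.186.

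**Figure D4:**
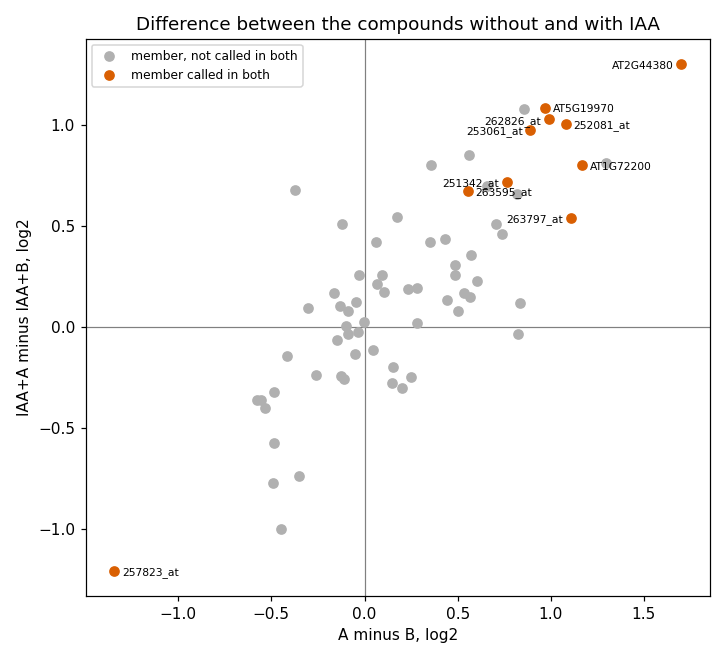
Difference between the compounds for each of the 69 members without IAA (x axis, A minus B) and with IAA (y axis, IAA+A minus IAA+B), as log2 differences of group means. Orange points passed the threshold in both comparisons, 9 in the upper right and 257823_at in the lower left.

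The levels in the compounds alone are given against DMSO without a test, since the members were chosen for high DMSO arrays. For the same reason the compounds tend to read below DMSO, and a combination tends to read above IAA alone. The members split into those that a compound held well above DMSO, those near it and those below it. In A, 14 members averaged at least 0.6 above DMSO, against 3.99% of all probe sets, and 10 at least 0.6 below, against 1.53%. In B, 10 were at least 0.6 above, against 2.92%, and 22 at least 0.6 below, against 3.05%. The medians of the members were -0.13 in A and -0.32 in B.

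Farthest above DMSO in A, and in B, was ZCF37, a gene of no assigned role here, which read 8.33 to 8.73 in DMSO and 7.52 to 8.07 in IAA. It read 10.71 to 10.94 in A, 10.88 to 11.03 in B, 10.53, 10.59 and 10.62 in IAA with A and 10.66, 10.98 and 10.83 in IAA with B. Every array with a compound lay above every array without one. Its mean IAA response was -0.18 ± 0.06 with an adjusted p of 0.246. AT4G27652 had the next largest difference from DMSO in A, 1.98, and stood 2.29 above DMSO in B, where 257823_at stood 2.34 above. The group means of AT4G27652 were 7.46 for DMSO and 6.82 for IAA, were 9.44 and 9.74 for A and B, and were 9.76 and 9.66 for the combinations with A and with B. AT4G20000 averaged 7.04 for DMSO, 6.13 for IAA, 8.36 for A, 8.81 for B, and 7.77 and 8.77 for the combinations. In both genes IAA alone had the lowest mean. ZCF37 and AT4G27652 were picked after their values were seen, as were AT1G31050, a bHLH protein, AT1G23390, AT1G23710, AT3G21680 and 250103_at.

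The members at least 0.6 above DMSO with both compounds were 9: ZCF37, AT4G27652, AT4G20000, AT1G67920, AT1G31050, AT1G23710, 250103_at, 257823_at and 263320_at. No share over all probe sets was taken for this joint count, so it serves only as a list. AT1G67920 read 7.79 to 8.33 in A, 7.14 to 7.61 in B and 5.93 to 6.86 in DMSO, and was higher with A than with B by 0.71 ± 0.16 (adjusted p = 0.0212), a call lost without A 1, B 2 or B 3 (adjusted p up to 0.121). AT1G31050 read 7.14 to 7.64 in A, 7.77 to 8.12 in B and 6.50 to 6.72 in DMSO.

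At least 0.6 below DMSO with both compounds were 5 members: AT2G21560, AT3G20340, AT3G21680, 247600_at and 248395_at. AT3G20340 read 5.46, 6.51, 5.52 and 6.02 in A and 5.73, 6.09 and 5.91 in B, where the DMSO arrays read 6.91 to 7.11. In B alone 17 further members were that low, among them AT2G44380, AT1G72200, AT5G19970, AT1G30260 and AT1G23390, a kelch-repeat F-box protein that read 7.54, 7.79 and 7.82. In A alone 5 further members were, among them ATL8. The B mean was at or below the IAA mean in 15 members, and the A mean in 5. All counts in this paragraph are descriptions on arrays that the rule used, without shares over all probe sets.

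Over all 6 groups, the IAA arrays had the lowest mean in 34 members, IAA with B in 16, IAA with A and B alone in 9 each, and A alone in 1. DMSO had the highest mean in 40 members, A in 15, B in 11 and IAA with A in 3. IAA with A lay above IAA alone in 55 members and IAA with B in 42. The medians were 0.34 and 0.12, against -0.03 and -0.002 over all probe sets. The rule favours a low IAA mean and a high DMSO mean, so it partly sets all of these counts. They are a description, without shares over all probe sets.

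**Figure D5:**
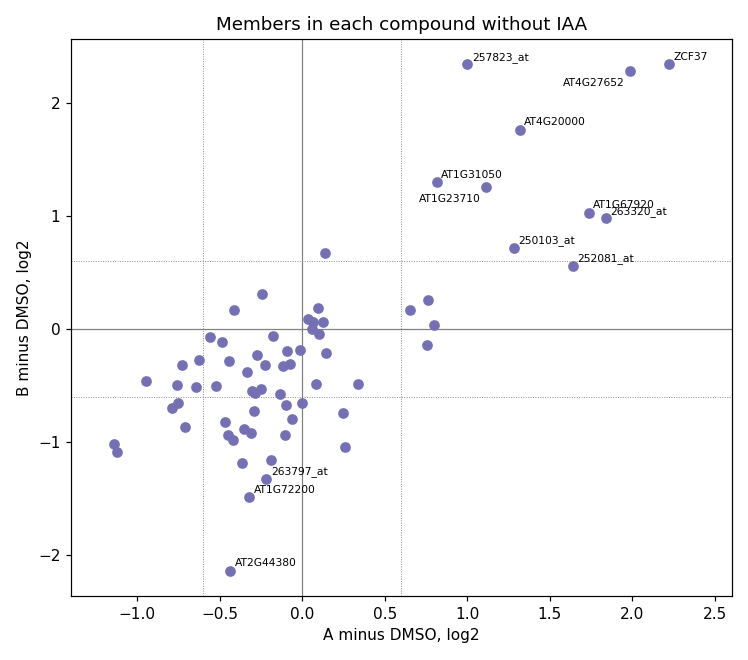
Group mean in A minus DMSO (x axis) and in B minus DMSO (y axis) for each of the 69 members, in log2 units and without a test. Dotted lines mark a difference of 0.6 in either direction. ZCF37 and AT4G27652 lie at the upper right and AT2G44380 at the bottom.

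Known auxin genes gave the scale of the IAA response on the same arrays. GH3.3 rose by 4.82 ± 0.09 with A and 4.46 ± 0.10 with B. Of 12 lists with 165 genes, most genes had no probe set paired with 1 gene, and only paired genes count as measured. None of the 35 members paired with 1 gene was on a list, and the other members could not be looked up. With A and with B, 3 of 7 measured Aux/IAA genes rose, as did 3 of 5 GH3 genes, 3 of 3 LBD and HD-ZIP II factors and 1 of 1 gene of auxin transport and synthesis. None of these fell. Of 2 sugar starvation genes 1 rose with B and none with A. In neither IAA response did a measured gene of the type-A response regulator and cytokinin oxidase list (2) pass the threshold. The same held for the touch and wounding list (5), the circadian clock list (3) and the abscisic acid list (2). Over all probe sets 0.897% passed it with A and 1.37% with B, so no call among so few genes has little weight. None of 11 genes of gibberellin and brassinosteroid metabolism was paired with a probe set.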

How the data were processed

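The deposited table holds the authors' log2 signal, 1 value per probe set and array. How probes were summarised and normalized is not given here in any source used. Array groups follow the sample titles. The values were used without further scaling, and 64 control probe sets were left out. Names came from the platform annotation and RefSeq, and 13513 of the tested probe sets had 1 gene, 503 several and 8730 none. No genome or sequence was used.

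Group means were fitted with limma 3.58.1 in R 4.3.3 to the 13 arrays outside the membership rule, with variances moderated along the intensity trend. Tests were two-sided, and p-values were adjusted by the Benjamini-Hochberg method over all 22746 probe sets at a threshold of 0.05. Errors after ± are standard errors and intervals are 95%. The number of arrays limits the precision. For the mean IAA response, the procedure was tested on simulated data in which 200 of the 22746 probe sets, drawn at random, differed. It called 70% of those shifted by 0.5 log2 units, 95% of those shifted by 1 and 100% of those shifted by 2, besides 11 false calls. The members spread more between arrays than most probe sets. Their median SD was 0.292 in A and 0.175 in IAA with A, against 0.144 and 0.092 over all probe sets. The shares called may therefore be too high for the members.

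The members and lists were chosen with earlier results of these data known. Named were the 12 members with 1 gene and the largest falls in IAA against DMSO, those past the threshold in a tested comparison, those at the edge of the rule and up to 5 without 1 gene; others are named as picked after their values were seen. Alternatives were all 21 arrays, quantile scaling, probe sets in the upper 60% by signal, no intensity trend, array weights, a replicate block, leaving out each array, other thresholds of the rule, and, after seeing the data, leaving out arrays by COR27 or by record.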

Additional observations from a re-analysis of the deposited data

Results flagged for a closer look

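Among 17 named members with 1 gene, the DMSO, IAA and A groups (51 groups in all) were checked for a single array that stood apart. The gap to the next array was judged against the range of its own group, so a small gap can be flagged. In all 3 were found. Chance gives about 1 in 20 such groups. AT5G10210 on DMSO 4 read 8.08, where the other DMSO arrays read 7.08 to 7.19. AT5G57785 on DMSO 4 read 9.962, where the others read 8.66 to 8.80. AT1G67920 on IAA 2, the array whose record names compound B, read 5.714, where the other IAA arrays all read 5.66. The B arrays read 7.14 to 7.61 for this gene, far above IAA 2. The array DMSO 4 was also the one DMSO array with COR27 low.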

How the results depend on the processing

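Counts are of probe sets or members past the adjusted threshold, and the cause of each change was not tested. All 21 arrays gave 7 falls for the mean response (11 in the 13 arrays), 1 for IAA with B against B (4) and 0 probe sets for the difference of the responses (2). Array weights gave for IAA with A against A 527 probe sets (204), 7 falling members (2) and a median of -0.216, for the mean response 755 probe sets (482), and for IAA with B against B 1 rising member. For the difference of responses they gave 4 probe sets, 1 member higher and a median of 0.0514. They gave 2867 probe sets (1291) and 4 members lower (1) for A against B, and 3094 (655), 6 lower (3) and 22 higher (12) with IAA. Quantile scaling gave 2 members lower in A than in B. Probe sets in the upper 60% by signal gave 2 there, 0 probe sets for the difference of responses and a median of -0.0613 for it (0.00).

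Whether replicate numbers pair the samples was not settled. Over 6 pairs of same-numbered arrays, a compound with its combination with IAA, the deviations from the group means correlated at -0.304 to 0.502. The correlation was above 0.1 in 3 pairs, and the best match had its own number in 3. So few pairs cannot exclude pairing, and the DMSO and IAA arrays were not checked. With the replicate block, 0 members fell for IAA with A against A, 3 were lower in A than in B, and the difference of responses gave 1 probe set and a median of 0.0432. Without A 2 and IAA with B 1, chosen after seeing the data, 7 members fell with B, the difference had a median of -0.0429, A against B gave 2262 probe sets and 2 members lower, and the comparison with IAA 1534 probe sets. Members chosen without IAA 2 gave 1 fall with A and a median mean response of -0.205.

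The rule gave 122 members at -0.5, 40 at -0.7 and 166 with overlap allowed. Leaving out single arrays gave 63 to 151 members, the highest without DMSO 3. For IAA with A against A it gave 130 to 204 probe sets, 0 to 3 falling members and medians of -0.314 to -0.237. For IAA with B against B it gave 209 to 385 probe sets, 1 to 6 falls, 0 to 1 rises and medians of -0.259 to -0.158, and for the mean response 393 to 549 probe sets, 4 to 12 falls and medians of -0.288 to -0.230. The difference of responses ranged over 1 to 16 probe sets and medians of -0.0784 to 0.0432. A against B ranged over 432 to 1567 probe sets, 8 to 18 members higher, 1 to 3 lower and medians of 0.173 to 0.223, and with IAA over 215 to 966, 4 to 14, 1 to 5 and 0.124 to 0.197. Slide and scan batches were not run, since the records leave those fields empty. Of 47 calls of named members, 18 held under each alternative run, 29 were lost under at least 1 and none changed direction; list genes were not run under the alternatives. The arrays' number and the unknown processing limit all of these.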
